A study of Mus musculus with 23 samples.

Results

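Genes of the intestinal stem cell and of Notch signaling were followed in the small intestine of ICR mice given busulfan, a chemotherapeutic that damages the gut lining, and then saline or a fecal microbiota transplant (FMT). The 10 genes were chosen with results of these data in view, in part because Hes1 was higher in A100-FMT than in Sa of set 2. They were Lgr5, Olfm4, Ascl2, Smoc2, Axin2 and Sox9 of the stem cell and its Wnt response, and Dll1, Dll4, Hes1 and Atoh1 of the Notch pathway. All 10 of 10 were found by symbol among the 19215 entries of the table, and all 10 were among the 11337 genes with a mean level of 1 FPKM or more that were tested. FPKM is the number of sequenced fragments scaled to the length of the transcript and to the size of the library, so levels of different genes can be compared.

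Every mouse had received busulfan once, at 40 mg/kg and an age of 3 weeks, so no group without busulfan is part of these comparisons. Sa mice then received saline orally, and the FMT mice received the intestinal contents of donors dosed with water (Con-FMT), with alginate oligosaccharide (AOS) at 10 mg/kg (A10-FMT) or with AOS at 100 mg/kg (A100-FMT). The study's methods describe daily FMT for 1 week and collection at 5 weeks of age, with male mice. The sample names divide the 23 libraries into set 1 and set 2 without saying what the sets are, so the age was not assigned to either. Each of the 8 groups had 3 libraries, except Sa of set 1, which had 2. The names number the samples but do not say that each is a separate animal, so p-values measure the spread between samples. A difference between the sets can reflect anything that separated them. The study's methods describe pooling the contents of all donors of a group before transfer, so the p-values do not measure the spread between donors. Whether both sets received the same pool is not stated.

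The stem cells of the small intestine sit at the base of the crypts, between Paneth cells, and renew the lining. Wnt signals keep them dividing, and Lgr5, Ascl2, Axin2, Smoc2 and Sox9 are known as genes that respond to or sustain this signal, while Olfm4 marks the same cells and depends on Notch. In Notch signaling, a ligand such as Dll1 or Dll4 on one cell activates a receptor on its neighbour, the receptor's inner part joins RBPJ in the nucleus, and Hes1 is switched on. Hes1 represses Atoh1, the factor that commits a cell to the secretory fate of Paneth, goblet and enteroendocrine cells, so that cells with active Notch become absorptive or remain stem cells.

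The genes lie on 8 chromosomes of the mouse genome (GRCm38.p6, RefSeq). Lgr5 (NCBI Gene 14160) is at chr10:115450314-115587780, Olfm4 (380924) at chr14:80000302-80023141, Ascl2 (17173) at chr7:142966822-142969264, Smoc2 (64074) at chr17:14279490-14404790, Axin2 (12006) at chr11:108917828-108950783 and Sox9 (20682) at chr11:112782210-112787757. Hes1 (15205) is at chr16:30065357-30067796, Atoh1 (11921) at chr6:64729125-64731245, Dll1 (13388) at chr17:15367354-15376932 and Dll4 (54485) at chr2:119325784-119335666. In the GENCODE M21 annotation, exons of Axin2, Dll1 and Dll4 share 209, 867 and 214 bases with Gm11670, A930024N18Rik and Gm14207 on the opposite strand. Exons of Olfm4 share 153 bases with Gm6999 on the same strand. Whether the authors' counting used strand is not given in the sources used here, so part of these values could belong to the overlapping genes.

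The sequence before the start of 6 of 10 genes was found in RefSeq promoter entries, and those of Lgr5, Smoc2, Sox9 and Hes1 were not. The windows of Dll1 and Dll4 overlap exons of their antisense neighbours and are not shown. The windows of Olfm4 and Axin2 are shown because these genes were lower in A10-FMT than in Con-FMT of set 1, that of Ascl2 because it was lower in A10-FMT than in Sa of set 1, and that of Atoh1 as the factor that Hes1 represses. They are 250 bases before the RefSeq start in GRCm38.p6, which for Axin2 lies inside the gene's full span. They are read 5′ to 3′ on the gene's strand, at chr14:80000052-80000250 (plus strand), chr11:108920099-108920348 (plus strand), chr7:142969265-142969514 (minus strand) and chr6:64728875-64729124 (plus strand). That of Olfm4 is cut to 199 bases, before the first exon base of GENCODE. Capitals mark matches on either strand to TGGGAA (the RBPJ core), CTTTGA (the TCF/LEF core of the Wnt response), CACNAG (the N-box bound by Hes proteins) or CAGCTG (an E-box of the kind Atoh1 can bind).
Olfm4: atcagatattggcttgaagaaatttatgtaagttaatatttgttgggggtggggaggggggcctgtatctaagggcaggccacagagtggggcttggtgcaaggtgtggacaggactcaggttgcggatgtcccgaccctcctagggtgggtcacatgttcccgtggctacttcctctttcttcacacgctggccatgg
Axin2: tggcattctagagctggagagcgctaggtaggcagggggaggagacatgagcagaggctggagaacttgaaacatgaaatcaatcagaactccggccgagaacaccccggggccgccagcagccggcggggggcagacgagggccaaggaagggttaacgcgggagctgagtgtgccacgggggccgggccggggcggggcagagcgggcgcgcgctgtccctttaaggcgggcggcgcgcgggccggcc
Ascl2: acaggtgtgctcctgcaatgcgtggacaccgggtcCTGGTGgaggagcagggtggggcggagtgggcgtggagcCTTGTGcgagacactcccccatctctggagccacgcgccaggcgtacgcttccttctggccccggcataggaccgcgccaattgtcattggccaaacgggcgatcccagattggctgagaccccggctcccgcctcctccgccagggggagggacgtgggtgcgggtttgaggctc
Atoh1: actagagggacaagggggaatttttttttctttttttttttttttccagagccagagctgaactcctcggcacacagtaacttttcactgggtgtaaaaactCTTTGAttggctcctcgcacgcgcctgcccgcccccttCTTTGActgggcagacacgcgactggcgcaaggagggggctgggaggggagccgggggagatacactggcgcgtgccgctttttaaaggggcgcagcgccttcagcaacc
Atoh1 held CTTTGA at 148 and 110 bases before the start, and 13.8% of all 32851 promoter windows hold it. Ascl2 held 2 matches to CACNAG on the opposite strand, which 36.7% of the windows hold. Olfm4 and Axin2 held none of these motifs in the window shown. TGGGAA is in 21.6% and CAGCTG in 13% of all windows, and in none of the 4 shown. These matches describe the letters of the windows and do not show that a factor binds there.

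Some properties of the libraries touch the results on Sa of set 1. For 1 of its 2 samples, the title (replicate 3) and the description point to different columns of the table. The title's column (Sa replicate 3) was used and stood apart: genes of high GC content were raised in it relative to the median library (Spearman's rho 0.69 across 10527 genes, against -0.22 to 0.22 in the other 22 libraries). Its correlation with the others across genes was 0.944 to 0.965, where pairs of the others reached 0.968 to 0.991. Results on Sa of set 1 are therefore given without it, and with the description's column, as well. The depth of the libraries is unknown. Epithelial markers were abundant in every library, with summed levels of 5902 to 16277 FPKM for 12 enterocyte genes and 16967 to 35038 for 14 Paneth genes. Most markers of the wall were near 0. Endothelial genes summed to 0.34 to 1.02 FPKM, genes of the subepithelial stroma to 0.06 to 0.85 and B and plasma cell genes to 1.03 to 2.76, and 7 of 10 smooth muscle genes, Acta2, Myh11 and Des among them, had means under 1 FPKM. The smooth muscle list still summed to 54.9 to 88.7 FPKM, mostly from Mylk (66.9) and Smtn (7.66).

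Olfm4, which encodes a secreted glycoprotein of crypt base cells, was by far the most abundant of the 10 genes, with a mean of 416 FPKM over all libraries (98.0th percentile of the tested genes). Hes1, a repressor switched on by Notch, had 37.9 FPKM and Smoc2, a matricellular protein of stem cells, 36.8. Axin2, a feedback inhibitor of Wnt, followed with 24.5, then Atoh1 with 13.0, Dll1 with 12.3, Sox9 with 6.77, Ascl2 with 5.95 and Dll4 with 5.46. Lgr5, the R-spondin receptor that defines the stem cell, had the lowest mean, 3.25 FPKM (16.6th percentile). The coefficient of variation over libraries was highest for Ascl2 (21.8%) and Lgr5 (16.6%) and lowest for Atoh1 (7.89%), so that Atoh1 varied least of the 10.

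**Figure D1:**
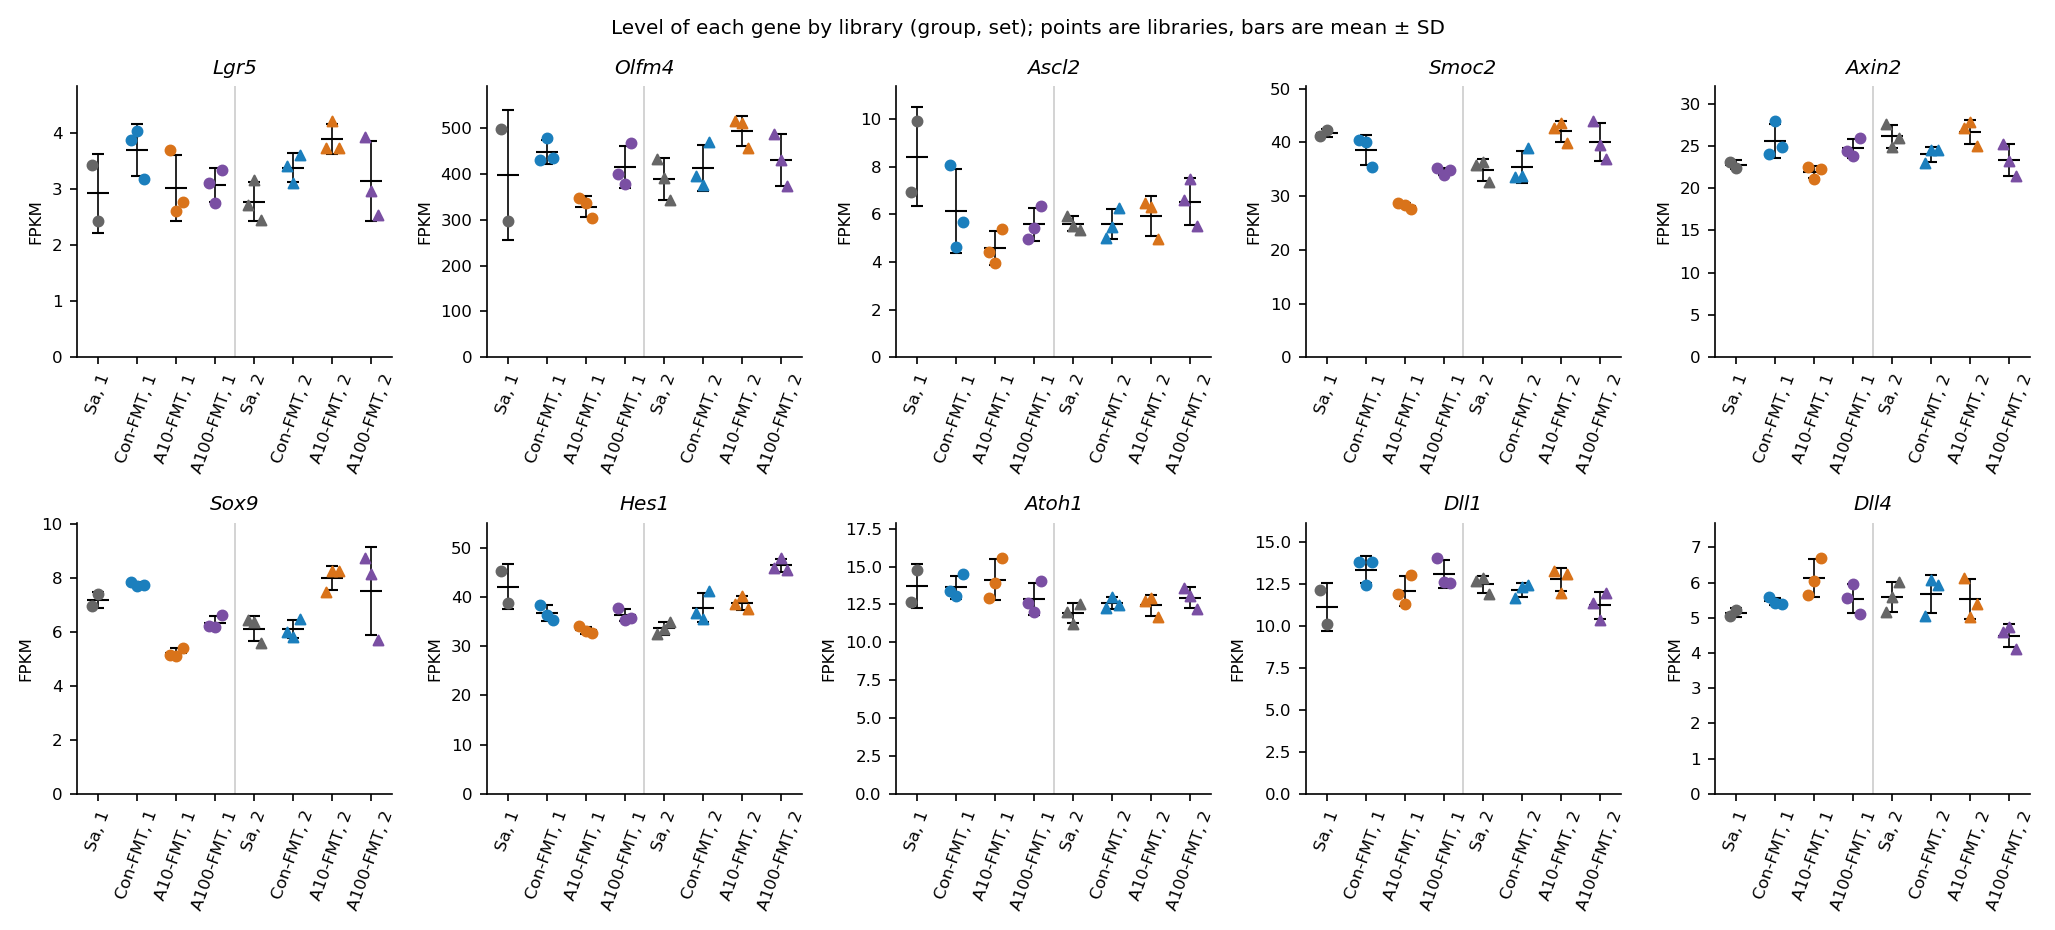
Level (FPKM, y axis) of each of the 10 genes in each library, by group on the x axis (treatment and set); points are libraries, bars are the group's mean ± SD (n = 3, and 2 for Sa of set 1). A10-FMT of set 1 held the lowest 3 Smoc2 and Sox9 libraries, and A100-FMT of set 2 the highest 3 Hes1 libraries.

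Smoc2 and Sox9 were lower in every A10-FMT library of set 1 than in any library of the other 7 groups, while the other genes overlapped with at least 1 of them. The comparison of A10-FMT with Con-FMT sets recipients of contents pooled from AOS-dosed donors against recipients of contents pooled from water-dosed donors. In set 1, 4 of 10 genes passed the test (limma on log2(FPKM + 1), adjusted p under 0.05 over 11337 genes), all 4 lower in A10-FMT. Over all genes, 16.7% passed and 11.5% were lower. The median change of the 10 genes was -0.22 on the log2 scale and that of all genes -0.08. The added 1 FPKM shrinks the changes of low genes such as Lgr5, Ascl2 and Dll4.

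Smoc2 had 28.7, 28.3 and 27.6 FPKM in A10-FMT of set 1 against 40.4, 40.1 and 35.4 in Con-FMT. No library of the groups overlapped, and the 3 A10-FMT libraries were the lowest of all 23. Its level fell by 0.44 on the log2 scale (standard error 0.07, adjusted p = 0.00114 with limma). Sox9, a transcription factor of the crypt and of Paneth cells, had 5.16, 5.11 and 5.42 FPKM against 7.85, 7.71 and 7.73. These A10-FMT libraries too were below all others, and Sox9 fell by 0.49 (standard error 0.10, adjusted p = 0.00327 with limma). Smoc2 and Sox9 passed the test under all 34 alternatives, which changed the scaling, the filters, the libraries in the fit or left out a library.

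Olfm4 had 347, 336 and 304 FPKM in A10-FMT of set 1 against 431, 478 and 436 in Con-FMT, again with no overlap. It fell by 0.45 (standard error 0.15, adjusted p = 0.0476 with limma). Axin2 had 22.5, 21.1 and 22.2 FPKM against 24.0, 27.9 and 24.9, and fell by 0.21 (standard error 0.07, adjusted p = 0.0342 with limma). The calls of these genes were less stable, since Olfm4 missed the threshold under 19 and Axin2 under 11 of the 34 alternatives, and quantile and trimmed-mean scaling both left 2 of 10 genes called. The count was also 2 without Con-FMT replicate 2 or 3 or without any 1 of the 3 A10-FMT replicates of set 1.

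Lgr5 and Ascl2, a transcription factor that maintains the stem cell, were not called. Lgr5 had 3.69, 2.61 and 2.76 FPKM in A10-FMT and 3.87, 4.03 and 3.17 in Con-FMT, and the groups overlapped (log2 change -0.23, 95% interval -0.50 to 0.05). Ascl2 had 4.44, 3.97 and 5.39 against 8.08, 4.65 and 5.70 (-0.33, interval -0.67 to 0.01). Both intervals include changes as large as that of Olfm4. Among the Notch genes, Hes1 differed by -0.14 (interval -0.27 to -0.01), Dll1 by -0.14 (-0.29 to 0.02), Dll4 by 0.14 (-0.03 to 0.31) and Atoh1 by 0.05 (-0.11 to 0.21), with none past the adjusted threshold.

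In set 2 the same comparison ran in the other direction. Smoc2 had 42.6, 43.6 and 39.9 FPKM in A10-FMT against 33.6, 33.7 and 38.9 in Con-FMT, Sox9 7.50, 8.25 and 8.28 against 6.0, 5.83 and 6.49, and Axin2 27.1, 27.8 and 25.0 against 23.0, 24.5 and 24.6. All A10-FMT libraries were above all Con-FMT libraries for these genes and for Lgr5. The log2 changes were 0.24, 0.34 and 0.14 (unadjusted p = 0.00274, 0.00268 and 0.0433; adjusted p = 0.142, 0.14 and 0.399 with limma), so 0 of 10 genes were called while 3 had an unadjusted p under 0.05. With array quality weights 2 were called, and without A100-FMT replicate 3 of set 2, 1 was. Over all genes, 0.379% were called and 1348 of 11337 had an unadjusted p under 0.05. Olfm4, with 515, 512 and 456 FPKM against 396, 375 and 471, overlapped (0.26, interval -0.05 to 0.57).

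**Figure D2:**
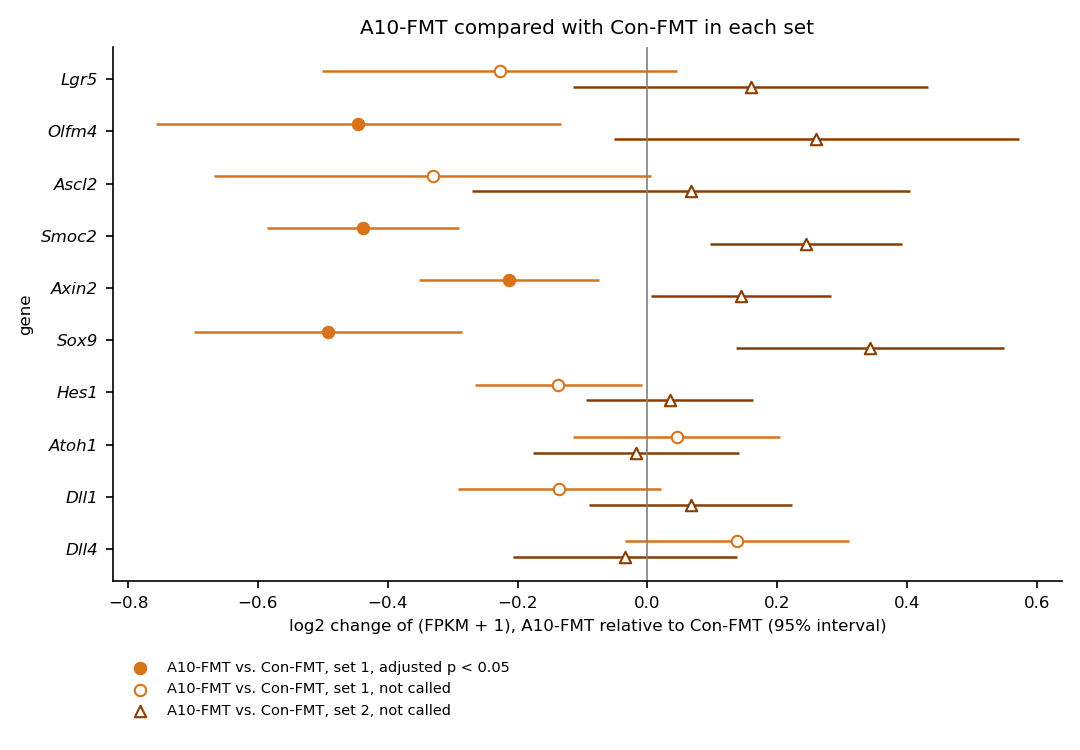
Log2 change of FPKM + 1 in A10-FMT relative to Con-FMT (x axis) for each gene (y axis) in set 1 (circles) and set 2 (triangles); lines are 95% intervals from limma and filled symbols have an adjusted p under 0.05. Smoc2 lay at -0.44 in set 1 and 0.24 in set 2, Sox9 at -0.49 and 0.34, while Atoh1 lay near 0 in both.

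The difference between the sets was itself tested. For 4 of 10 genes, A10-FMT exceeded Con-FMT by more in set 2 than in set 1, where 20.8% of all genes differed and 14.1% in this direction. The difference of log2 changes was 0.83 for Sox9 (standard error 0.14, adjusted p = 0.000718 with limma), 0.71 for Olfm4 (0.21, adjusted p = 0.0247), 0.68 for Smoc2 (0.10, adjusted p = 0.000332) and 0.36 for Axin2 (0.09, adjusted p = 0.0128). Smoc2 and Sox9 kept the call under all 34 alternatives, and Olfm4 and Axin2 under 30 and 31. Averaged over both sets, the differences cancelled: 0 of 10 genes were called with limma, 0 had an unadjusted p under 0.05, and 0% of all genes were called (697 of 11337 had an unadjusted p under 0.05).

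Set directly against each other, the A10-FMT libraries of set 2 had more of 5 of 10 genes than those of set 1, with all 3 libraries above in each case (30.4% of all genes differed, 21.8% higher in set 2, and the median of all genes was 0.12). Smoc2 rose by 0.56, a ratio of 1.47 (standard error 0.07, adjusted p = 4.44e-05 with limma), Olfm4 by 0.59 (0.15, adjusted p = 0.0069) and Sox9 by 0.53 (0.10, adjusted p = 0.000819). Axin2 rose by 0.27 and Hes1 by 0.21 (adjusted p = 0.00563 and 0.014). Hes1 missed the threshold under 6 of 34 alternatives, among them trimmed-mean scaling (0.12, adjusted p = 0.165), the omission of A10-FMT replicate 3 of set 1 or replicate 2 of set 2 (adjusted p = 0.0514 and 0.0666) and GC content and length with the replicate block (0.04, adjusted p = 0.736). Con-FMT had 0 of 10 called between the sets, with 1 at an unadjusted p under 0.05. Over all genes, 0.00882% were called and 674 of 11337 had an unadjusted p under 0.05. A100-FMT had 0 of 9 genes called, leaving out Hes1, with 3 at an unadjusted p under 0.05. Here 0% of all genes were called and 1641 of 11337 had an unadjusted p under 0.05.

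In lists of the same pathways that leave out the 10 genes, most genes did not pass the test between A10-FMT and Con-FMT of set 1, and nearly all that passed were lower. Over all genes, 11.5% were lower. Of 32 tested genes of the Notch pathway, 1 was higher and 10 were lower than in Con-FMT. The receptors Notch1 and Notch2 fell by 0.53 and 0.44 and Dtx4, a regulator of Notch, by 0.43 (adjusted p = 0.000729, 0.00159 and 0.00183 with limma). The most abundant genes of this list, the γ-secretase subunits Psenen and Aph1a and the ubiquitin ligase Neurl3, differed by 0.09, 0.01 and 0.15 (adjusted p = 0.448, 0.916 and 0.284). The list's median was -0.15, beside -0.08 for all genes.

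Of 33 tested Wnt genes, 0 were higher and 8 lower (median -0.23). Fzd5, a Wnt receptor, fell by 0.50, Tiam1 by 0.43 and Lgr4, a receptor of R-spondins like Lgr5, by 0.38 (adjusted p = 0.0011, 0.00361 and 0.0198 with limma). Ctnnb1 (β-catenin), Csnk1a1 and Ccnd1, the most abundant, differed by -0.00, -0.14 and -0.27 (adjusted p = 0.971, 0.38 and 0.142). Of 25 other stem cell genes, 0 were higher and 10 lower (median -0.29), with Slc12a2 down by 0.59, Sox4 by 0.54 and Msi1, an RNA-binding protein of crypt progenitors, by 0.53 (adjusted p = 0.0375, 0.00892 and 0.00929). Hnf4a, the most abundant of them, fell by 0.15 (adjusted p = 0.0301), while Ly6a and Cdx2 differed by 0.06 and -0.05 (adjusted p = 0.848 and 0.666). This list also holds Hnf4a, Cdx2, Gata4, Gata5 and Gata6, intestinal transcription factors that are not confined to stem cells.

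Of 16 factors of the secretory lineage, in which Atoh1 acts, 1 was higher and 1 lower in A10-FMT than in Con-FMT of set 1, near the 16.7% called over all genes. Klf4, a factor of goblet cells and of the upper villus, rose by 0.61 (adjusted p = 0.00259 with limma), and the one that fell was Sox4, which is in both lists. Xbp1 and Creb3l1 differed by 0.04 and -0.03 (adjusted p = 0.642 and 0.869). In set 2, 0 genes of these 4 lists were called between A10-FMT and Con-FMT.

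Between the A10-FMT groups of the sets, 11 of 32 tested Notch pathway genes were higher in set 2 and 1 lower. The counts were 12 and 0 of 33 for Wnt, 12 and 1 of 25 for the other stem cell genes and 4 and 1 of 16 for the secretory factors. Over all genes, 30.4% were called and 21.8% were higher, so the secretory factors were near the share of all genes. The list medians were 0.16, 0.21, 0.33 and 0.03, beside 0.12 for all genes. Nrarp, a Notch target that limits the signal, rose by 0.47, Fzd6 by 0.54 and Lrig1, a brake on growth factor receptors in stem cells, by 0.55 (adjusted p = 0.000579, 0.00691 and 5.43e-05 with limma). Klf4 fell by 0.85 (adjusted p = 9.52e-05).

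Genes of dividing crypt cells and of villus enterocytes moved with these differences. Of 18 crypt proliferation genes, 12 were lower and 0 higher in A10-FMT than in Con-FMT of set 1 (11.5% of all genes lower), and 17 were higher in A10-FMT of set 2 than of set 1 (21.8% of all genes higher). Of 12 enterocyte genes, 9 were higher and 0 lower in the first comparison, and 11 were lower in the second. Over all genes, 16.7% were called in either direction in the first comparison and 30.4% in the second. The summed crypt genes were 658 to 708 FPKM in A10-FMT of set 1, 794 to 878 in Con-FMT of set 1 and 874 to 941 in A10-FMT of set 2. The summed enterocyte genes were 13415 to 16277, 8517 to 9713 and 5902 to 7793 FPKM. In the same order of groups, proximal small intestine genes summed to 3232 to 4217, 2002 to 2318 and 1266 to 1964 FPKM. Distal genes summed to 6268 to 6359, 5521 to 5967 and 5134 to 5813 FPKM. The proximal list shares Fabp1, Apoa4 and Lct with the enterocyte list. In whole tissue, fewer cells of a type and less RNA per cell cannot be told apart. The part of the crypt and villus content, or of the segment sampled, in the changes of the 10 genes was not tested.

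Set against the summed crypt genes, the gap in the stem cell genes was smaller. Per 1000 FPKM of crypt proliferation genes, Olfm4 had 484 ± 27.7 FPKM in A10-FMT and 535 ± 20.4 in Con-FMT of set 1 and 544 ± 20.9 in A10-FMT of set 2 (SD, n = 3 each). The libraries of the first 2 groups overlapped on this scale. Smoc2 had 41.6 ± 1.34, 46.1 ± 1.72 and 46.2 ± 0.526, and Sox9 7.71 ± 0.511, 9.28 ± 0.478 and 8.82 ± 0.631 (SD, n = 3 each), where A10-FMT of set 1 was still below every library of Con-FMT. Axin2 had 32.3 ± 2.23, 30.5 ± 1.77 and 29.3 ± 0.555, the reverse of its order in FPKM, with overlap between A10-FMT and Con-FMT of set 1.

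Over the 23 libraries, Smoc2 had a Pearson's r of 0.91 with the summed crypt genes and -0.86 with the summed enterocyte genes, on the log2 scale. Sox9 had 0.76 and -0.78, and Olfm4 0.66 and -0.56 (0.80 and -0.80 without Sa replicate 3 of set 1). Hes1 had 0.63 and -0.43, Atoh1 -0.30 and 0.23, and Dll4 -0.64 and 0.50. These values are descriptions, as libraries share a treatment and FPKM values of a library share their total.

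**Figure D3:**
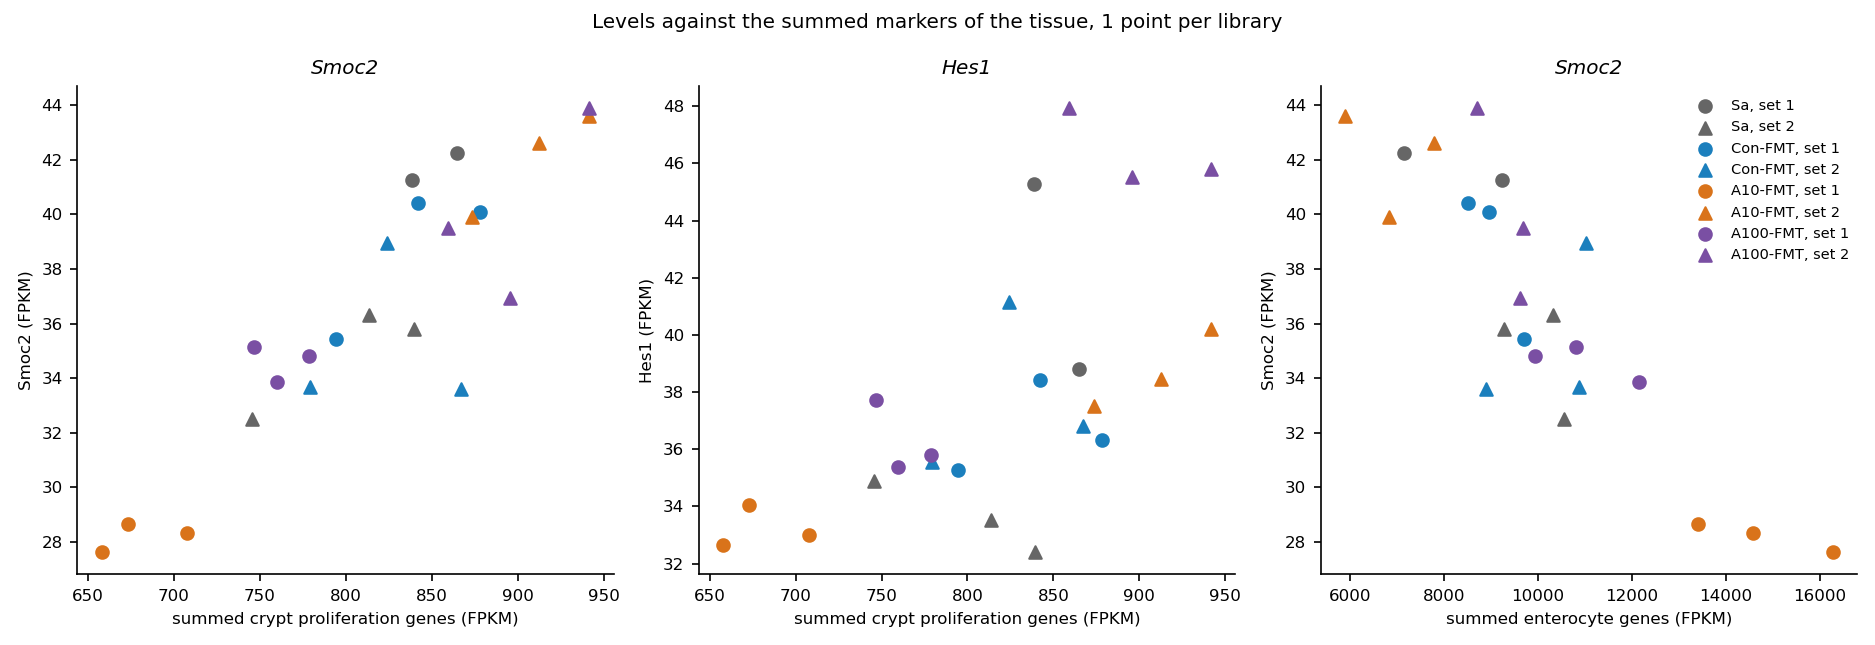
Level of Smoc2 or Hes1 (FPKM, y axis) against the summed level of 18 crypt proliferation or 12 enterocyte genes (FPKM, x axis), with 1 point per library, colours for treatments, circles for set 1 and triangles for set 2. Smoc2 was higher where the crypt sum was higher (r = 0.91), while the 3 Hes1 libraries of A100-FMT of set 2 lay above the A10-FMT libraries of set 2 at similar crypt sums. Relative to the crypt sum, Hes1 in A100-FMT of set 2 overlapped Con-FMT of set 2 and Sa, A10-FMT and A100-FMT of set 1.

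Hes1 was chosen for its level in A100-FMT of set 2, so the following is a description without a test. It had 45.8, 47.9 and 45.5 FPKM there against 32.4, 33.5 and 34.9 in Sa of set 2. That was a ratio of 1.37 on the FPKM + 1 scale (log2 change 0.46), given without an interval because this comparison chose the gene. The 3 libraries were the highest of all 23, with no overlap with Sa, with Con-FMT (36.8, 35.6 and 41.1) or with A10-FMT (38.5, 40.2 and 37.5). Sa replicate 1 of set 1, with 45.3 FPKM, came next, and the description's column for the other Sa sample of that set would have 46.6. In this comparison, 0.0353% of all genes were called. With the GC and length trends taken out, the log2 change was 0.38. Per 1000 FPKM of crypt proliferation genes, Hes1 had 48.7 to 55.8 FPKM in A100-FMT of set 2. That range overlapped Con-FMT of set 2 (highest 49.9) and Sa, A10-FMT and A100-FMT of set 1 (highest 54.0, 50.6 and 50.5). It lay above Sa and A10-FMT of set 2 (highest 46.8 and 42.9) and Con-FMT of set 1 (highest 45.65).

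In set 1 the order was different, since Hes1 was highest in Sa. It had 45.3 and 38.8 FPKM in Sa, 38.4, 36.3 and 35.3 in Con-FMT, 34.0, 33.0 and 32.7 in A10-FMT and 37.7, 35.4 and 35.8 in A100-FMT, and every FMT library was below both Sa libraries. Hes1 fell by 0.33 in A10-FMT relative to Sa (standard error 0.07, adjusted p = 0.00275 with limma), and by 0.43 without Sa replicate 3 (adjusted p = 0.00955). It fell by 0.20 in A100-FMT and 0.19 in Con-FMT (adjusted p = 0.0315 and 0.049), and without Sa replicate 3 the changes were larger, -0.31 and -0.30, and not called (adjusted p = 0.0596 and 0.489). With the description's column all 3 were called (adjusted p = 0.000129, 0.00325 and 0.0155). With the GC and length trends taken out, the change was -0.18 in A10-FMT, -0.08 in A100-FMT and -0.06 in Con-FMT. None of these was called (adjusted p = 0.0832, 0.45 and 0.685 with limma). Leaving out Sa replicate 1 gave -0.095 in A100-FMT and -0.08 in Con-FMT. Of the 34 alternatives, the call was missed under 4 for A10-FMT, 9 for A100-FMT and 28 for Con-FMT.

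The Hes1 levels of Con-FMT, A10-FMT and A100-FMT were thus below Sa in set 1 and above it in set 2. The log2 change from Sa to A10-FMT was greater in set 2 by 0.53 (0.63 without Sa replicate 3 of set 1), and Sa of set 2 differed from Sa of set 1 by -0.31 (-0.42 without it). Both are descriptions, since Hes1 was chosen on the Sa libraries of set 2. By mean level, the order of the 8 groups ran from A100-FMT of set 2 (46.4 ± 1.31 FPKM) through Sa of set 1 (42.0 ± 4.56), A10-FMT (38.7 ± 1.36) and Con-FMT of set 2 (37.8 ± 2.92), Con-FMT (36.7 ± 1.61) and A100-FMT of set 1 (36.3 ± 1.24), to Sa of set 2 (33.6 ± 1.24) and A10-FMT of set 1 (33.2 ± 0.717; SD, n = 3, and 2 for Sa of set 1). Neighbours in the middle of this order, from Sa of set 1 to A100-FMT of set 1, overlapped, as did the lowest pair.

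Dll4, a Notch ligand of secretory cells, was lowest where Hes1 was highest. It had 4.59, 4.75 and 4.12 FPKM in A100-FMT of set 2, the lowest 3 of the 23 libraries, though the description's column for Sa of set 1 had 3.83. It had 5.05, 6.06 and 5.92 FPKM in Con-FMT and 5.15, 5.59 and 6.01 in Sa of set 2. A100-FMT differed from Con-FMT by -0.28 (interval -0.45 to -0.11, unadjusted p = 0.00295, adjusted p = 0.201 with limma), which did not pass. In set 1, Dll4 was highest in A10-FMT, with 5.64, 6.03 and 6.70 FPKM, where Hes1 was lowest. Over the 23 libraries, Hes1 and Dll4 had a Pearson's r of -0.67, which came from differences between groups: r was -0.91 over the 8 group means and 0.05 within groups. The other pairs of Notch genes were weaker, with -0.38 for Hes1 and Dll1 and -0.07 for Hes1 and Atoh1.

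**Figure D4:**
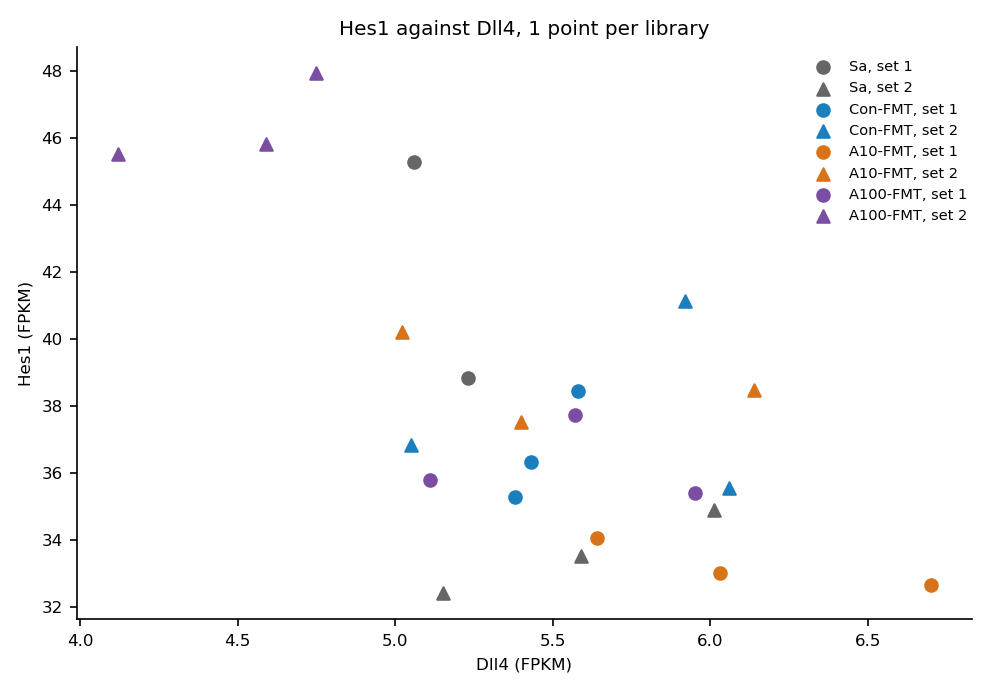
Hes1 (FPKM, y axis) against Dll4 (FPKM, x axis), with 1 point per library, colours for treatments, circles for set 1 and triangles for set 2. Of the 23 libraries, those of A100-FMT of set 2 alone had 45.5 FPKM or more of Hes1 and 4.75 or less of Dll4 (the description's column for Sa of set 1, not plotted, had 46.6 and 3.83). A10-FMT of set 1 lay at 34.0 or less of Hes1, as did Sa replicates 1 and 2 of set 2 (32.4 and 33.5).

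Dll1, the other Notch ligand of the 10 genes, had group means that lay close together. Its lowest mean was 11.1 ± 1.43 FPKM (SD, n = 2), in Sa of set 1, and its highest 13.4 ± 0.803 (SD, n = 3), in Con-FMT of set 1, and every group overlapped the next in this order. It was higher than in Sa of set 1 by 0.25 in Con-FMT and 0.22 in A100-FMT (adjusted p = 0.0379 and 0.0475 with limma), and without Sa replicate 3, at 10.1 FPKM the lowest of all libraries, by 0.13 and 0.10 (adjusted p = 0.83 and 0.679). With the description's column the changes were 0.25 and 0.22 and were not called either (adjusted p = 0.199 and 0.0842). Groups further apart in the order did separate. Dll1 had 10.4 to 12.0 FPKM in A100-FMT of set 2 and 12.6 to 14.1 in A100-FMT of set 1. This difference was called under 1 of 34 alternatives, array quality weights (-0.26, adjusted p = 0.0197 with limma). Con-FMT of set 2 had at most 12.43 FPKM and Con-FMT of set 1 at least 12.45.

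Atoh1 passed the test in none of the 22 comparisons as fitted, but did in some under alternatives. A10-FMT of set 2 differed from that of set 1 by -0.17 (adjusted p = 0.0997 with limma) and was called lower under 4 of 34 alternatives, among them quantile and trimmed-mean scaling (adjusted p = 0.0353 and 0.0235). Sa of set 2 differed from Sa of set 1 by -0.19 (adjusted p = 0.089) and was called lower under 3. A10-FMT of set 1 differed from Sa by 0.04 and was called higher under 2, one of them the description's column (0.22, adjusted p = 0.0364). Its lowest group mean was 11.9 ± 0.662 FPKM, in Sa of set 2, and its highest 14.1 ± 1.33, in A10-FMT of set 1 (SD, n = 3 each), with overlap between neighbours throughout. Groups further apart did separate. A10-FMT had 12.94 FPKM or more in set 1 and 12.93 or less in set 2. Sa had 12.55 or less in set 2 and 12.69 or more in set 1, where the description's column had 11.2. In A100-FMT of set 2, where Hes1 was highest, Atoh1 had 13.6, 13.1 and 12.2 FPKM against 12.0, 11.2 and 12.6 in Sa. The ratio of Hes1 to Atoh1 was 3.60 ± 0.188 in A100-FMT of set 2, above every library of Sa (2.82 ± 0.143), Con-FMT (3.01 ± 0.282) and A10-FMT (3.12 ± 0.0992) of that set, and 2.37 ± 0.267 in A10-FMT of set 1 (SD, n = 3 each). This order follows from Hes1, which chose the comparison.

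Against Sa of set 1, the counts were near the share of all genes. Of the 10 genes, 2 were called in Con-FMT (26.9% of all genes), 4 in A10-FMT (32% of all genes) and 4 in A100-FMT (35.2% of all genes). Without Sa replicate 3, 0, 3 and 0 were called, and with only the groups compared or with array quality weights, 0 in each. The count for Con-FMT was 4 without Sa replicate 1, and 0 or 1 without any 1 of 20 other libraries. The count for A100-FMT was 2, 1 and 2 without A100-FMT replicate 1, 2 and 3 of set 1. Smoc2 had 41.3 and 42.3 FPKM in Sa and fell by 0.55 in A10-FMT (standard error 0.08, adjusted p = 0.000525 with limma; 0.53 and adjusted p = 0.00955 without Sa replicate 3) and by 0.26 in A100-FMT (adjusted p = 0.0203), and without Sa replicate 3 differed by -0.25 there (adjusted p = 0.286). Sox9, at 6.97 and 7.40 FPKM in Sa, fell by 0.39 in A10-FMT (adjusted p = 0.0131), and differed by -0.36 without it (adjusted p = 0.112).

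Ascl2 rested on Sa replicate 3 for its size. It had 6.95 and 9.91 FPKM in Sa of set 1, and the second value was the highest of all 23 libraries. It fell by 0.74 in A10-FMT and 0.51 in A100-FMT (adjusted p = 0.00603 and 0.0382 with limma), and without that library differed by -0.51 and -0.28 (adjusted p = 0.135 and 0.611). Olfm4 showed the reverse, with 497 and 298 FPKM in Sa, of which the latter was the lowest of all libraries, and the description's column had 483. Olfm4 was not called in A10-FMT against Sa (-0.23, adjusted p = 0.296 with limma), but was without Sa replicate 3 (-0.60, adjusted p = 0.0304) and with the description's column (-0.58, adjusted p = 0.00194). The 3 genes called in A10-FMT without Sa replicate 3 were therefore Olfm4, Smoc2 and Hes1. With the description's column, 7 of 10 were called.

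Against Sa of set 2, Con-FMT and A10-FMT were tested and A100-FMT was only described. Hes1 is a description in both, because these Sa libraries served to choose it, and is left out of the counts. In Con-FMT, 0 were called with limma (0.0353% of all genes). An unadjusted p under 0.05 was found for 651 of 11337 genes and for none of the members other than Hes1. Hes1 was higher by 0.16, with all libraries above Sa. In A10-FMT, 0 were called (0.423% of all genes), while an unadjusted p under 0.05 was found for 1627 of 11337 genes and for 4 members. Those were Lgr5 (0.38), Olfm4 (0.35), Sox9 (0.34) and Smoc2 (0.26), with all A10-FMT libraries above all Sa libraries (adjusted p from 0.1 to 0.294 with limma). Hes1 was higher by 0.20, also with no overlap. With array quality weights, these 4 were called. Smoc2 was called without Sa replicate 1 or 3 of set 1, and Sox9 without A100-FMT replicate 3 of set 2. All of these libraries are outside the comparison. Lgr5 had 3.73, 4.20 and 3.73 FPKM in A10-FMT against 2.72, 3.15 and 2.45 in Sa of set 2, with no overlap.

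The change from Sa to A10-FMT differed between the sets for Smoc2 (0.81), Ascl2 (0.80) and Sox9 (0.73; adjusted p = 0.000196, 0.0194 and 0.00199 with limma). Over all genes, 28.4% were called. Hes1, described above, is not counted here. Without Sa replicate 3, Ascl2 was not called (0.57, adjusted p = 0.128) and Smoc2 and Sox9 were (0.80 and 0.70, adjusted p = 0.000914 and 0.01). With array quality weights 0 of 10 were called. The change from Sa to Con-FMT differed for 0 of 10 genes, and 0.00882% of all genes were called. An unadjusted p under 0.05 was found for 3893 of 11337 genes and for 3 of the 10, near the share of all genes. Hes1, a description here, is among the 10. Sa of set 2 was lower than Sa of set 1 in Ascl2 (-0.50) and Smoc2 (-0.25), and 38.1% of all genes differed. The change of Hes1 (-0.31) is a description. Without Sa replicate 3 of set 1, neither Smoc2 nor Ascl2 was called (-0.24 and -0.27, adjusted p = 0.323 and 0.618 with limma). Neither was called without Sa replicate 3 of set 2. Axin2 and Sox9 were called too without A100-FMT replicate 3 of set 2 (0.19 and -0.20). Without Sa replicate 1 of set 1, Olfm4, Dll1 and Atoh1 differed by 0.38, 0.28 and -0.29 between the Sa groups. The difference between the sets in the change to Con-FMT was then -0.50 for Olfm4, 0.63 for Ascl2, -0.30 for Axin2 and -0.41 for Dll1.

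Against Con-FMT, fewer of the genes were called at the higher AOS dose in set 1, though the doses' counts were not tested against each other. A100-FMT against Con-FMT had 0 of 10 genes called in set 1 (0.406% of all genes) and 0 of 9 in set 2, without Hes1 (0% of all genes). An unadjusted p under 0.05 was found for 2 of the 10 and 1282 of 11337 genes in set 1. In set 2 it was found for 3 of the 9 and 1270 of 11337 genes. In set 1, the nominal differences were Sox9, at 6.23, 6.18 and 6.62 FPKM in A100-FMT against 7.85, 7.71 and 7.73 (-0.26, interval -0.46 to -0.05), and Smoc2, at 35.2, 33.9 and 34.8 against 40.4, 40.1 and 35.4 (-0.15, interval -0.30 to -0.00). In both, all A100-FMT libraries lay below Con-FMT and above A10-FMT. In set 2, Hes1 was higher than in Con-FMT by 0.29 in description, and Sox9 had 8.75, 8.14 and 5.69 FPKM, of which the last was below the Con-FMT range.

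A100-FMT against A10-FMT had 1 of 10 genes called in set 1 (5.66% of all genes), Smoc2, which was higher by 0.29 (standard error 0.07, adjusted p = 0.0271 with limma) and missed the threshold under 11 of 34 alternatives, among them the omission of any 1 A10-FMT or A100-FMT library of set 1. The count was 2 without Sa replicate 1 or 3 of set 1 or A100-FMT replicate 3 of set 2. In set 2, 0 of 9 were called (0.00882% of all genes), with 3 at an unadjusted p under 0.05 (808 of 11337 over all genes). Averaged over both sets, 0 of 10 genes were called in Con-FMT and in A10-FMT against Sa (0.75% and 0.132% of all genes), and 4 in each without Sa replicate 1 of set 1. An unadjusted p under 0.05 was found for 1 and 3 of the 10, and for 2659 and 2260 of 11337 genes, with Hes1, a description there, among the 10. Likewise, 0 of 9 were called in A100-FMT against Con-FMT (0.123% of all genes), with 1 at an unadjusted p under 0.05 (1097 of 11337 over all genes).

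The 10 genes varied together in part. Over the 23 libraries, Smoc2 and Sox9 had a Pearson's r of 0.87 on the log2 scale, Lgr5 and Olfm4 0.75, and Olfm4 and Smoc2 0.68 (0.90 without Sa replicate 3 of set 1). Among all tested genes, those most like Lgr5 were Ghr, the growth hormone receptor (r = 0.84), Sfxn2 (0.79) and Pard3, a polarity protein (0.78). Most like Olfm4 were Cdca2, a cell division protein (0.90), Yap1, a co-activator of the Hippo pathway (0.89), and Mrtfb (0.88). Most like Atoh1 were Nprl2 (0.75), Klk1 (0.75) and Spdef, a factor of goblet and Paneth cells (0.75), and without Sa replicate 3 Spdef came first (0.77). Most like Hes1 were Nudc (0.82), Snrpd1, a component of the spliceosome (0.80), and Chtop (0.79), and without Sa replicate 3 they were Rps10, Rps6-ps4 and Rpl12 (0.85 each).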

How the data were processed

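RNA of mouse small intestine was sequenced on an Illumina HiSeq instrument. The authors deposited gene levels as FPKM in 1 table of 19215 entries and 24 columns, while the methods name RPKM. The submitters' processing notes name the mouse build mm10. The aligner, annotation and strand setting behind the FPKM table are not given in the sources used here, and the authors' count-based test was not repeated because no counts were used. The 23 libraries were grouped by their labels. The 11337 genes whose mean level reached 1 FPKM entered limma 3.58.1 (R 4.3.3), run on log2(FPKM + 1), with a mean for each of the 8 groups, a moderated variance with trend and Benjamini-Hochberg adjustment over all these genes. Calls had an adjusted p under 0.05. The depth is unknown, so no counting error was derived. Scripts were tested on simulated data. The 10 genes, the gene lists and the tests were chosen with earlier results of these data known, and Hes1 was not tested in any comparison with A100-FMT of set 2 and is given as a description wherever Sa of set 2 enters, nor was any gene between A100-FMT and Sa of set 2. All 10 genes were named, with, for each list, up to 3 called genes of largest change and the 3 most abundant. The alternatives were another pseudocount (0.1), no filter or a minimum mean of 5 FPKM, and quantile or trimmed-mean scaling. They also included only the groups compared, array quality weights, a replicate block, the description's column and leaving out each library. Further alternatives, chosen after seeing the data, subtracted from each library its smooth trends with the GC content and then the length of genes. These were run with and without the block. GC content and length were taken from GENCODE M21 transcripts, for 92.86% of the tested genes. Promoter windows came from RefSeq and exon overlaps from GENCODE M21, both on GRCm38.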

Additional observations from a re-analysis of the deposited data

Results flagged for a closer look

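The change from Con-FMT to A10-FMT differed between the sets, by the test of the difference itself, for Olfm4 (0.71 on the log2 scale, greater in set 2), Smoc2 (0.68), Axin2 (0.36) and Sox9 (0.83). The change from Sa to A10-FMT differed likewise for Ascl2 (0.80), Smoc2 (0.81), Sox9 (0.73) and Hes1 (0.53). For Hes1 this is a description, since the Sa libraries of set 2 served to choose it. These comparisons share the A10-FMT libraries. The change from Sa to A100-FMT had opposite directions in the sets for Smoc2 (a difference of 0.46) and Hes1 (0.66), with every A100-FMT library below Sa in set 1 and above it in set 2, and that difference was not tested. No group had 4 or more libraries, so single libraries were not tested as outliers.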

How the results depend on the processing

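No gene reversed a called direction under any alternative. The number of the 10 genes called moved as follows, and the causes were not tested. Counts in comparisons with Sa of set 2, here and below, include Hes1, which is a description there. With no filter on low levels, Con-FMT against Sa of set 1 had 0 and A100-FMT against Sa of set 1 had 2. With quantile scaling, Con-FMT against Sa had 0, A100-FMT against Sa 2, A10-FMT against Con-FMT 2 and A100-FMT against A10-FMT 0 in set 1, and Sa between the sets 5. With trimmed-mean scaling, Con-FMT against Sa had 1, A10-FMT against Con-FMT 2 and A100-FMT against A10-FMT 0 in set 1. With only the groups compared, the counts against Sa of set 1, A100-FMT against A10-FMT of set 1 and Sa between the sets were 0. With array quality weights, the counts against Sa of set 1, of Sa between the sets and of the difference between the sets for A10-FMT against Sa were 0, while in set 2 A10-FMT against Sa had 5, A10-FMT against Con-FMT 2 and A100-FMT against Con-FMT 1, and A100-FMT between the sets 2. With the description's column, Con-FMT, A10-FMT and A100-FMT against Sa of set 1 had 1, 7 and 2, A100-FMT against A10-FMT of set 1 had 2, A10-FMT against Sa of set 2 had 2 and the difference between the sets for Con-FMT against Sa 1. With the GC and length trends taken out, Con-FMT and A100-FMT against Sa of set 1 had 1 and 2 and A100-FMT against A10-FMT 0. These were the same with the replicate block added, where Sa between the sets had 0 and A10-FMT between the sets 3. Hes1 in A100-FMT against Sa of set 2 was then 0.38 in both, from 0.46.

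Deviations from the group means correlated by -0.16 to 0.18 between same-numbered libraries of set 1 and by -0.35 to 0.32 in set 2. Between libraries of other numbers the ranges were -0.23 to 0.23 and -0.35 to 0.37. With 2 or 3 libraries a group, this cannot exclude that the numbers pair samples. With the replicate block, Con-FMT against Sa of set 1 had 1, A10-FMT against Con-FMT of set 1 had 2 and Sa between the sets 0.

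Leaving out 1 library at a time gave 0 to 4 for Con-FMT, 3 to 5 for A10-FMT and 0 to 4 for A100-FMT against Sa of set 1, 2 to 5 for A10-FMT against Con-FMT and 0 to 2 for A100-FMT against A10-FMT of set 1. It gave 0 to 2 for A10-FMT against Sa and 0 to 1 for A10-FMT against Con-FMT of set 2, and 0 to 4 for Con-FMT and for A10-FMT against Sa over both sets. The differences between the sets ranged from 0 to 5 for Con-FMT against Sa, 4 to 5 for A10-FMT against Sa and 3 to 4 for A10-FMT against Con-FMT, and the direct comparisons of the sets from 1 to 7 for Sa and 4 to 6 for A10-FMT. Hes1 in A100-FMT against Sa of set 2 ranged from 0.43 to 0.48. Lgr5 could not be tested with a mean of at least 5 FPKM. Scaling moved the median of all genes by at most 0.0968 on the log2 scale. With 2 or 3 libraries a group and unknown depth, the low levels of Lgr5, Ascl2 and Dll4 carry an unquantified counting error.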
